A study of Mus musculus with 9 samples.

Results

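The smooth muscle contractile program was followed through 10 genes, Acta2, Myh11, Tagln, Cnn1, Des, Actg2, Lmod1, Synpo2, Smtn and Myocd, taken by gene name from a table of 56263 genes and loci. They were measured in lung RNA of male BALB/c mice, an inbred laboratory strain, bought at 6 to 8 weeks of age, with 3 libraries in each of 3 groups. Mice of the QJHTD group (Q1 to Q3) and of the model group (M1 to M3) were exposed 3 times daily, 30 min each, to smoke from 6 cigarettes over a course of 42 days, and were given 20 µg of lipopolysaccharide (LPS), a bacterial endotoxin, into the trachea on days 1 and 14. The QJHTD group also received Qing-Jin-Hua-Tan decoction (QJHTD), a herbal formula, by gavage before smoke, at the highest of the 3 doses the study tested, whereas the model group was given vehicle and the control group (C1 to C3) vehicle without smoke or LPS. The model is one of smoke and LPS combined, so that the effect of either agent alone cannot be told apart. The labels do not say whether each library came from its own mouse, and p-values therefore measure the spread between these libraries, which may in part be technical.

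Smooth muscle cells wrap the airways and the blood vessels of the lung. They contract when myosin heavy chains pull on actin filaments that are anchored to the cytoskeleton, and the genes for this apparatus are switched on together by serum response factor (SRF), which binds a DNA element named the CArG box, with its coactivator myocardin. Among the 10 genes, Acta2 and Actg2 encode the vascular and the enteric smooth muscle actin, and Myh11 encodes the smooth muscle myosin heavy chain. Tagln, Cnn1 and Smtn encode transgelin, calponin 1 and smoothelin, which bind actin filaments, Lmod1 encodes leiomodin 1, which starts new filaments, Des encodes the intermediate filament protein desmin, and Synpo2 encodes an actin-bundling protein. Myocd encodes myocardin itself. All 10 are protein-coding, and the GENCODE M21 annotation (GRCm38) places the actin genes Acta2 at chr19:34241090-34255590 (minus strand) and Actg2 at chr6:83512905-83536265 (minus strand), and the myosin gene Myh11 at chr16:14194535-14291372 (minus strand). On chromosome 9 lie Tagln at chr9:45929619-45936058 (minus strand) and Cnn1 at chr9:22099216-22109630 (plus strand), and on chromosome 1 Des at chr1:75360329-75368579 (plus strand) and Lmod1 at chr1:135324807-135368065 (plus strand). Synpo2 at chr3:123076519-123236149 (minus strand), Smtn at chr11:3517523-3540612 (minus strand) and Myocd at chr11:65176561-65269989 (minus strand) complete the set.

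Because the CArG box is the shared element of this program, the promoters were searched for it. RefSeq (GRCm38.p6) gave a window of 250 bases before and 50 bases after the transcription start for 6 of the 10 genes (Acta2, Cnn1, Des, Lmod1, Synpo2 and Smtn). An exact CArG box of 10 bases was in 0 of these 6 windows, against 1.63% of the 32851 windows of all genes. With at most 1 mismatch, an allowance made after the exact search, 2 of the 6 windows held it, those of Acta2 and Lmod1, against 21.1% of all windows. The MCAT motif, CATTCC on either strand, a site of TEAD factors in muscle promoters, was in 3 of the 6 (Acta2, Lmod1 and Smtn), against 14.7% of all windows. The 250 bases before the start of the 2 genes with CArG-like boxes are shown 5′ to 3′ on the strand of the gene, with the CArG-like boxes and the MCAT motif (here on the reverse strand, read as GGAATG) in capitals. The Acta2 stretch is chr19:34255374-34255623 (minus strand), of which the bases up to 34255590 lie inside the longer gene model of GENCODE. That of Lmod1 is chr1:135324563-135324812 (plus strand).
Acta2: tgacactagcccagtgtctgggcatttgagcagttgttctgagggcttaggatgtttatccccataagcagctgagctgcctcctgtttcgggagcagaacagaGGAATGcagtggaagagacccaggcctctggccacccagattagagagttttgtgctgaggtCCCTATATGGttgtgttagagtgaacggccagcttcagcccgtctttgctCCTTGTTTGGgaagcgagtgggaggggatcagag
Lmod1: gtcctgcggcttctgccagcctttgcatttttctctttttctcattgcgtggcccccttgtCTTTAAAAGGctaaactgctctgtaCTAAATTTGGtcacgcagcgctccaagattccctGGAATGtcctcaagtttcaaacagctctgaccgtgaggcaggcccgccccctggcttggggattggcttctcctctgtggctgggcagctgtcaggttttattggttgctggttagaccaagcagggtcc
The 2 CArG-like boxes of Acta2, CCCTATATGG and CCTTGTTTGG, begin 84 and 34 bases before the RefSeq start, which lies inside the GENCODE gene. Those of Lmod1, CTTTAAAAGG and CTAAATTTGG, lie further out, at 189 and 164 bases before it. A match of letters is not evidence of binding, and no binding was measured in these mice.

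The values are TPM, a unit of transcript abundance that sets each gene against the total of its library and corrects for gene length. Such values hold no counts of reads, and how deeply a library was sequenced is not known from them. Lung markers were present in each library, with Sftpc, a surfactant protein of alveolar type II cells, between 11426 and 32475 TPM over the 9 libraries. Segments of antibody and T-cell receptor genes took 36.8% to 43.7% of the total in the QJHTD group and 36.2% to 42.9% in the model group, against 0.296% to 0.605% in the control group, and the TPM of all other genes divide what remains of each library. Fewer cells of a type and less RNA per cell cannot be told apart in lung homogenate.

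All 9 contractile genes that could be tested were called lower in the model lungs than in the control lungs, where 56.5% of all tested genes were called lower, and their libraries did not overlap, which held in the same direction for 58.5% of all tested genes. The 10 genes summed to 130, 103 and 156 TPM in M1, M2 and M3, against 564, 472 and 634 TPM in C1, C2 and C3, so that the control sum was 4.30 times the model sum. QJHTD lungs, at 89.3, 111 and 185 TPM in Q1, Q2 and Q3, spanned the model values. A gene was tested where at least 3 of 9 libraries reached 1 TPM, which 16080 genes did, and it was called where the adjusted p (limma on log2(TPM + 1), Benjamini-Hochberg) was under 0.05. Of the 10 genes only Myocd stayed under that minimum.

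**Figure D1:**
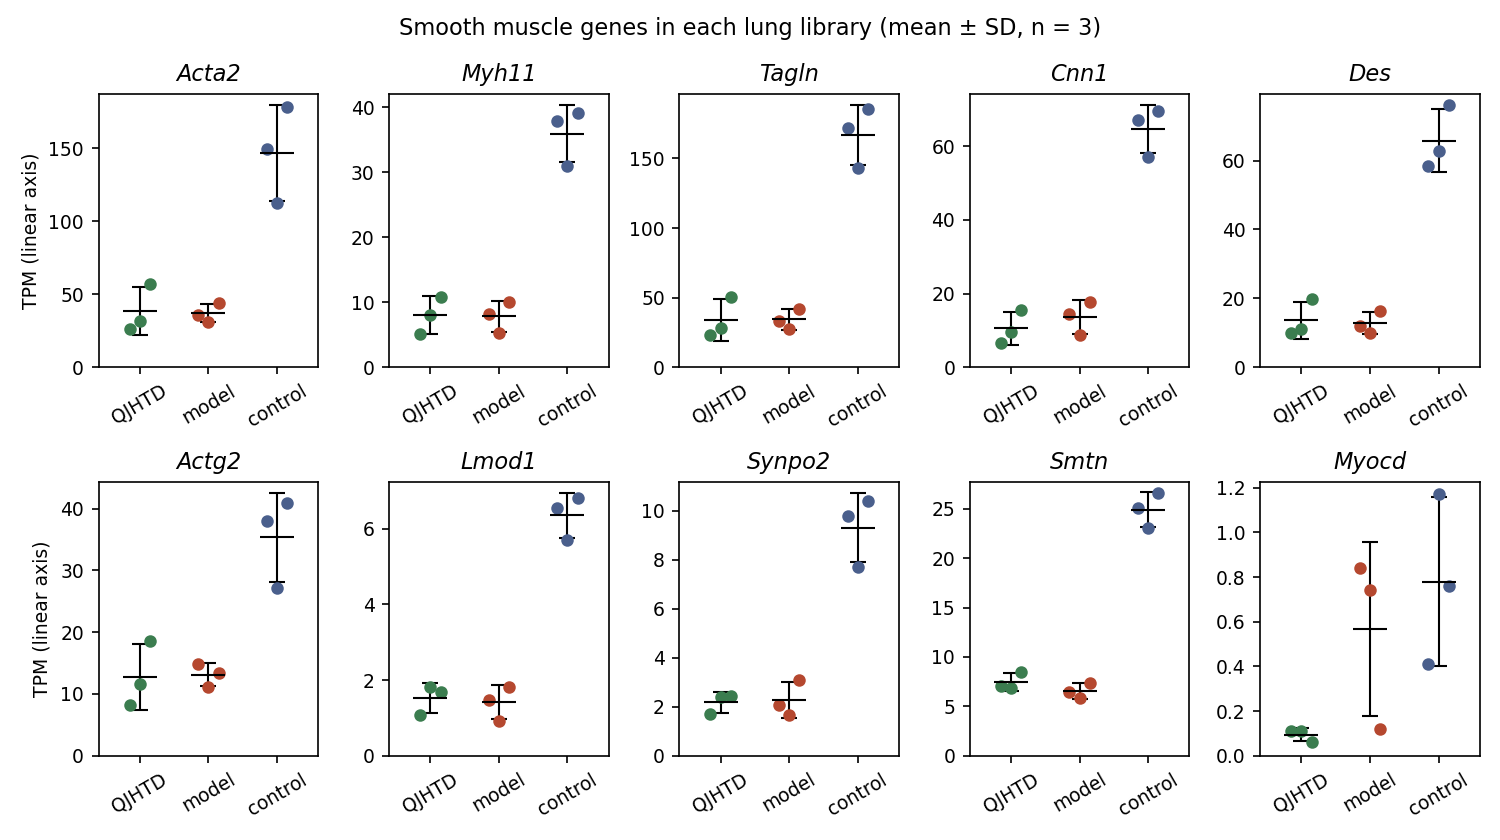
TPM (linear axis, one panel per gene) of the 10 smooth muscle genes in the QJHTD, model and control libraries, with points for libraries and bars for the mean ± SD (n = 3). In 9 panels the control points lie above all QJHTD and model points, whereas the Myocd points of the model and control groups overlap.

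Acta2 and Actg2, the actins of the smooth muscle filament, were both lower in model lungs, but not by the same amount. Acta2 was measured at 36.0, 31.2 and 43.9 TPM in the model libraries, against 149, 113 and 178 TPM in the control libraries. Each control library thus had more than the highest model library, and the control mean was 3.96 times the model mean (log2 fold change −1.95 ± 0.28 (SE), adjusted p = 0.000255, limma). Actg2 was measured at 14.8, 11.2 and 13.3 TPM in the model libraries, against 38.0, 27.2 and 40.9 TPM in the control libraries. Its change of −1.35 ± 0.26 was the smallest in size of the 9 genes (adjusted p = 0.00146, limma), with a control mean 2.70 times the model mean. As a result Actg2 stood at 41.2, 35.8 and 30.4 TPM per 100 TPM of Acta2 in the model group, against 25.4, 24.2 and 23.0 in the control group. The 2 groups did not overlap in this ratio, but 3 libraries against 3 cannot go below the p of 0.1 that was found (exact permutation test, two-sided), and over 9 such ratio comparisons the adjusted value was 0.225.

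Myh11, the motor of the same filament, was measured at 8.25, 5.30 and 10.04 TPM in the model libraries, against 37.9, 30.9 and 39.1 TPM in the control libraries. The groups were far apart, and the log2 fold change was −2.09 ± 0.27 (adjusted p = 0.000132, limma). Myh10, a non-muscle myosin heavy chain that other cells use, also fell (log2 fold change −2.61), and Myh11 per 100 TPM of Myh10 averaged 83.0 in the model group and 58.9 in the control group. This ratio was not distinguished between the groups (exact permutation p = 0.2, two-sided).

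The genes of the actin-binding proteins Tagln, Cnn1 and Smtn fell to a similar degree. Tagln, the most abundant of the 10 genes in control lungs, was measured at 33.4, 27.5 and 42.2 TPM in the model libraries, against 172, 143 and 185 TPM in the control libraries (log2 fold change −2.26 ± 0.27, adjusted p = 8.9e-05, limma). Cnn1 was measured at 14.5, 8.63 and 17.7 TPM in the model libraries, against 67.0, 57.2 and 69.4 TPM in the control libraries (log2 fold change −2.21 ± 0.30, adjusted p = 0.000186, limma). For both genes the lowest control library exceeded the highest model library more than 3-fold. Smtn had the smallest standard error of the 9 genes, at 6.47, 5.80 and 7.40 TPM in the model libraries, against 25.1, 23.1 and 26.6 TPM in the control libraries, and also the smallest adjusted p (log2 fold change −1.78 ± 0.12, adjusted p = 2.87e-06, limma).

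Des, Lmod1 and Synpo2, which anchor or shape the filaments, completed the pattern. Des had the change of largest size among the 9 genes, at 12.1, 10.01 and 16.2 TPM in the model libraries, against 58.4, 62.9 and 76.1 TPM in the control libraries (log2 fold change −2.29 ± 0.25, adjusted p = 5.2e-05, limma). Desmin is also a filament of heart and skeletal muscle. Lmod1, which nucleates actin filaments, was low throughout, at 1.48, 0.93 and 1.82 TPM in the model libraries, against 6.56, 5.69 and 6.80 TPM in the control libraries (log2 fold change −1.62 ± 0.18, adjusted p = 5.4e-05, limma). Synpo2 was measured at 2.08, 1.66 and 3.10 TPM in the model libraries, against 9.80, 7.71 and 10.4 TPM in the control libraries (log2 fold change −1.67 ± 0.19, adjusted p = 6.6e-05, limma). The pseudocount of 1 TPM shrinks the fold change of such low genes, and the control means were 4.50 times the model mean for Lmod1 and 4.08 times for Synpo2.

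Myocd, the coactivator gene, was near the limit of the table. Its values were 0.84, 0.74 and 0.12 TPM in the model libraries, against 0.41, 1.17 and 0.76 TPM in the control libraries, and 0.11, 0.11 and 0.06 TPM were found in the QJHTD libraries. The model and control libraries overlapped, while the 3 QJHTD libraries were below all others. Of all tested genes, 3.81% were lower in QJHTD than in model lungs without overlap, and 56.8% were lower in QJHTD than in control lungs. Both shares are of genes that reached the minimum for testing, which Myocd did not. Without the filter on low values, Myocd had a log2 fold change of −0.68 between QJHTD and control (adjusted p = 0.0343, limma), −0.49 between QJHTD and model (adjusted p = 0.951) and −0.20 between model and control (adjusted p = 0.505). At values this low, with depth unknown, the precision rests on the spread of 3 libraries alone.

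A count of 9 of 9 stands beside a table in which most genes were lower, so the size of the change was compared as well. The median log2 fold change was −1.95 over the 9 genes and −0.47 over all tested genes, and between 2.25% of tested genes (for Des) and 11.7% (for Actg2) had a lower value than a given one of the 9. The shift of all genes depended on how libraries were scaled, and the contractile genes kept their direction under each scaling tried. After median-ratio rescaling their median was −1.41 beside an all-gene median of −0.0041, and 9 of 9 were called lower where 29.6% of all genes were. After quantile normalization the median was −1.73 beside −0.16 (38.6% of all genes called lower), and after TPM were recomputed without receptor segments, hemoglobin and mitochondrial genes it was −1.31 beside 0.07 (24.7%). The largest adjusted p among the 9 genes was that of Actg2, at 0.0148, 0.00532 and 0.0228 in these 3 fits.

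**Figure D2:**
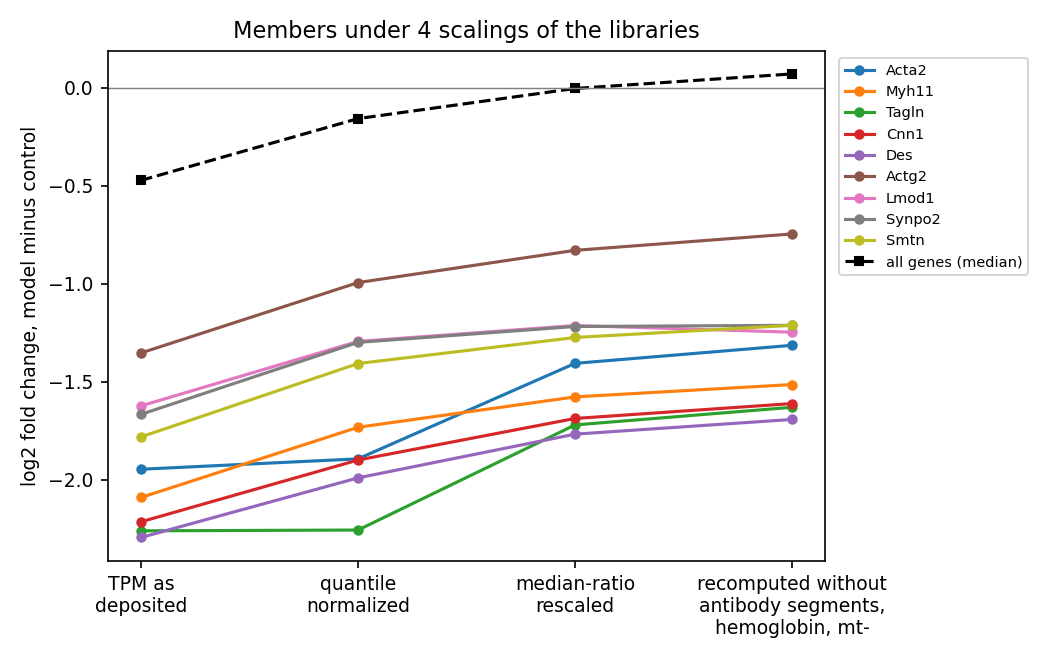
Log2 fold change, model minus control, of the 9 tested smooth muscle genes under 4 scalings of the libraries, with the median of all tested genes as a dashed black line. The gene lines stay between −2.29 and −0.75, below the median of all genes in each scaling.

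QJHTD treatment was compared with the model group to ask whether these genes differed between treated and untreated diseased lungs. Of the 9 tested genes, 0 passed the adjusted p (limma) and 0 had an unadjusted p under 0.05, where 0.0124% and 6.84% of all tested genes did. The median log2 fold change was −0.02 over the 9 genes and 0.05 over all tested genes. Acta2 was measured at 26.3, 31.5 and 56.9 TPM in the QJHTD libraries, a wider range than the 31.2 to 43.9 TPM of the model libraries, with a log2 fold change of −0.02 (95% interval −0.65 to 0.61). Cnn1 had the change of largest size, with 6.68, 9.54 and 15.5 TPM in the QJHTD libraries, against 14.5, 8.63 and 17.7 TPM in the model libraries, a log2 fold change of −0.36 (95% interval −1.04 to 0.32). That value rested on single libraries, as it was −0.10 without Q1, where Myh11 had a larger one (0.26), and −0.65 without Q3 (unadjusted p = 0.0448, adjusted p = 0.906, limma). Smtn lay on the other side, with 7.03, 6.86 and 8.51 TPM in the QJHTD libraries, against 6.47, 5.80 and 7.40 TPM in the model libraries, and had the narrowest interval, a log2 fold change of 0.16 (95% interval −0.10 to 0.43). The libraries of both groups overlapped for all 9 genes, where 12.3% of all tested genes had no overlap. A p that misses the threshold does not show equality, and the intervals leave room for changes in either direction.

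The other 6 genes gave the same picture. Myh11 was measured at 5.07, 8.03 and 10.9 TPM in the QJHTD libraries, and Tagln at 23.1, 27.9 and 50.8 TPM. Des was measured at 9.97, 11.2 and 19.8 TPM, Actg2 at 8.20, 11.5 and 18.5 TPM, Lmod1 at 1.07, 1.82 and 1.69 TPM, and Synpo2 at 1.69, 2.40 and 2.44 TPM. Their log2 fold changes against the model group lay between −0.10 (Actg2) and 0.07 (Lmod1).

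Compared with control lungs, the QJHTD lungs were again lower in 9 of 9 genes, where 53.7% of all tested genes were called lower, and 9 of 9 did not overlap, against 56.8% of all genes. The control libraries are the same as in the comparison of model with control, so the comparisons share their reference values. The median log2 fold change was −1.97 over the 9 genes (−0.44 over all tested genes), with Cnn1 lowest at −2.57 ± 0.30 (adjusted p = 8.5e-05, limma) and Actg2 highest at −1.45 ± 0.26 (adjusted p = 0.00104, limma). For Cnn1 the control mean was 6.11 times the QJHTD mean, and for Actg2 it was 2.77 times.

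**Figure D3:**
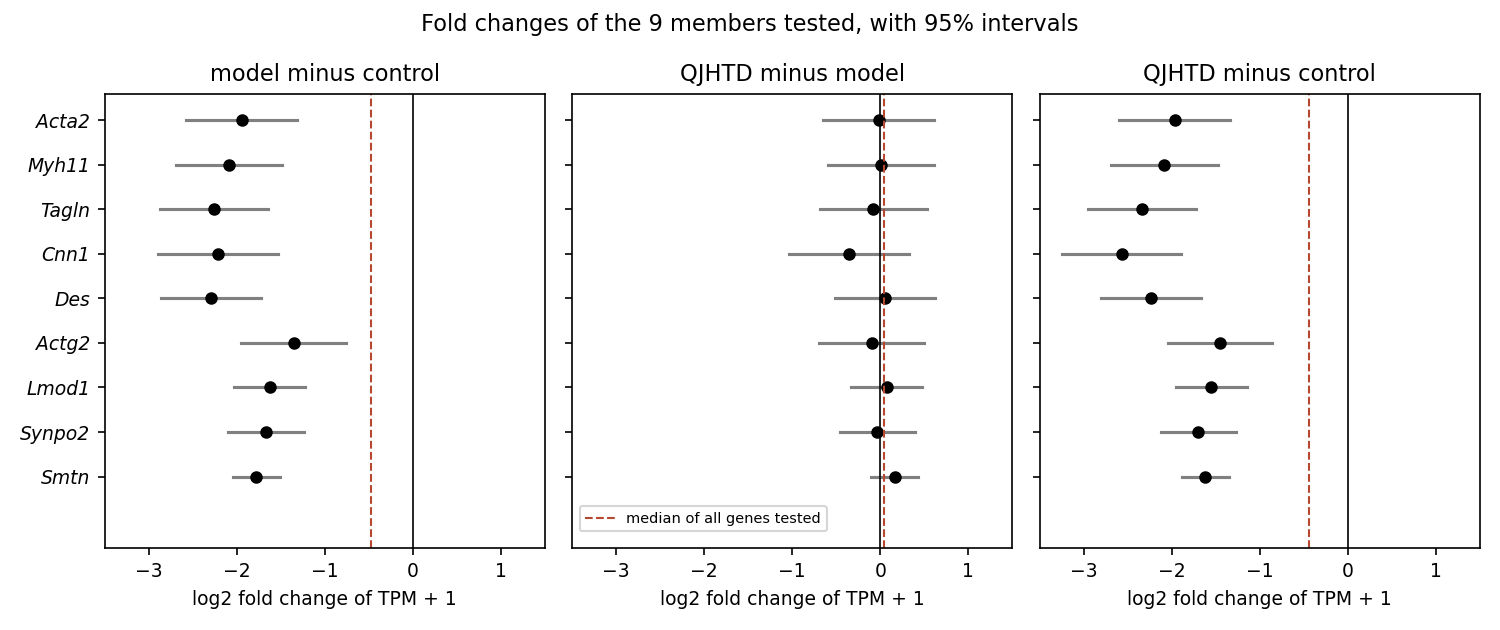
Log2 fold changes of TPM + 1 with 95% intervals for the 9 tested smooth muscle genes in the comparisons of model with control, QJHTD with model and QJHTD with control. The dashed line is the median of all tested genes. All intervals lie below 0 in both comparisons with control, and all 9 include 0 between QJHTD and model.

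Within each group the contractile genes went up and down together from library to library. Q1 was the lowest QJHTD library and Q3 the highest for Acta2, Myh11, Tagln, Cnn1, Des and Actg2, M2 was the lowest model library for each of the 9 tested genes, and C3 was the highest control library for each of them. Averaged over the 9 genes, the deviation from the group mean on the log2 scale was −0.38, −0.05 and 0.43 in Q1, Q2 and Q3, 0.03, −0.31 and 0.27 in M1, M2 and M3, and 0.04, −0.20 and 0.16 in C1, C2 and C3. As a description over the 9 libraries, which share their RNA among all genes, the deviations of each gene correlated with the mean of the others between 0.81 (Lmod1) and 0.97 (Cnn1). These deviations are of TPM without rescaling. The factors of median-ratio rescaling, which follow the level of most genes, were lowest in their groups for Q1 (0.845), M2 (0.802) and C3 (1.229). The share of all genes with correlations as high was not determined.

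Heart muscle markers moved with these deviations in the QJHTD and model libraries. The lung holds cardiac muscle in the walls of the pulmonary veins, and 14 cardiomyocyte markers summed to 39.1, 70.2 and 459 TPM in Q1, Q2 and Q3, 90.2, 38.5 and 207 TPM in M1, M2 and M3, and 763, 1449 and 2431 TPM in C1, C2 and C3. Within the QJHTD and the model group this is the order of the contractile genes, whereas in the control group the lowest library was C1 for the heart markers and C2 for the contractile genes. Of the 13 heart markers tested, 12 were lower in the model than in the control group (median log2 fold change −3.64) and Nppa did not pass. Of all tested genes, 56.5% were called lower. None of the 14 heart markers was at 0 in all libraries of a group. Skeletal muscle markers (10 genes) summed to 5.56 to 17.6 TPM in the QJHTD group, 10.04 to 15.6 TPM in the model group and 52.7 to 102 TPM in the control group, with Myh2 and Myh4, myosins of fast fibres, at 0 in all QJHTD and all model libraries and Myh1 at 0 in all model libraries. Their part in the change of Des and of the other contractile genes was not tested.

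The deviations of Tab1, an activator protein of the kinase TAK1, were most like those of the 9 genes among 9539 genes compared (Pearson r of 0.986 over 9 libraries), followed by the methyltransferase gene Setd6 (0.98), the ubiquitin hydrolase gene Uchl3 (0.977) and the mitochondrial genes Ndufc1 (0.974) and Atp5h (0.973). They were picked for this likeness, and no smooth muscle role is read from it. Between model and control their differences were not alike. Tab1, Setd6, Ndufc1 and Atp5h were lower in the model group (log2 fold changes −0.52, −0.73, −0.48 and −0.74), each by less than any of the 9 contractile genes, whereas Uchl3 averaged 25.9 TPM in model lungs and 25.4 TPM in control lungs and did not pass (0.03).

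The further genes of the contractile apparatus, 32 myosin light chains, tropomyosins, actinins, adhesion and filament proteins, were compared in the same way. Of these, 30 were lower in the model than in the control group, where 56.5% of all tested genes were called lower. Of the 32, 0 were higher and 2 did not pass, with a median log2 fold change of −1.52. Under the 3 other scalings 19 to 27 of the 32 were called lower, where 24.7% to 38.6% of all tested genes were. The smallest p belonged to Cnn3, a calponin of many cell types (log2 fold change −2.14), followed by Pgm5, a protein of adherens-type junctions (−2.05), Synm, the intermediate filament protein synemin (−2.69), and Nexn, the actin-binding protein nexilin (−1.64). Myl9, the smooth muscle myosin light chain, singled out after its values were seen, was measured at 25, 23.9 and 33.3 TPM in the model libraries, against 164, 144 and 202 TPM in the control libraries (log2 fold change −2.59 ± 0.25, adjusted p = 2.3e-05, limma). Actn1, a non-muscle actinin, and Filip1l, a filamin-binding protein, were the 2 that did not pass (log2 fold changes −0.07 and −0.11), and both were called higher after median-ratio rescaling (0.47 and 0.42).

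**Figure D4:**
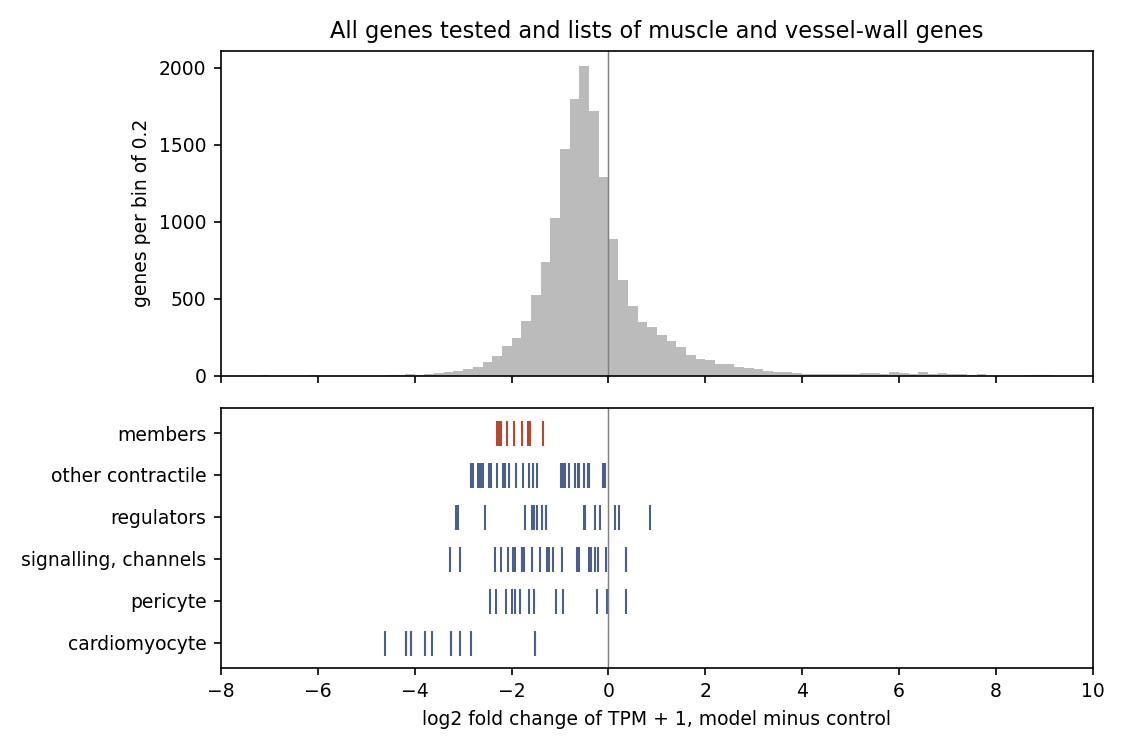
Histogram of the log2 fold change of TPM + 1, model minus control, over the 16080 tested genes (upper panel), and the values of single genes in 6 lists (lower panel, one tick per gene). The 9 smooth muscle genes lie between −2.29 and −1.35, left of the bulk of all genes, and most ticks of the other lists are below 0.

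Upstream regulators of the program did not all share its direction. Of 17 tested, 12 were lower in the model group, 1 was higher and 4 did not pass, with a median log2 fold change of −1.29. The smallest p belonged to Foxf1 (log2 fold change −3.16), Klf4 (−2.55), Tcf21 (−3.11) and Hey2 (−1.58). Foxf1 and Tcf21 are factors of the lung mesenchyme, and Klf4 is known to hold back contractile genes in smooth muscle. Srf, whose product binds the CArG box, was named after its values were seen. It was measured at 17.9, 13.5 and 15.96 TPM in the model libraries, against 22.6, 23.5 and 21.4 TPM in the control libraries, and changed by −0.50 ± 0.12 (adjusted p = 0.00396, limma), close to the median of all tested genes. Mef2c was the 1 regulator that was higher, at 13.0, 8.79 and 14.1 TPM in the model libraries, against 6.94, 5.87 and 5.41 TPM in the control libraries (log2 fold change 0.85 ± 0.16, adjusted p = 0.00136, limma). Mef2c is expressed in lymphocytes and other cells besides muscle. Elk1, Mrtfa, Prrx1 and Smad3 did not pass (log2 fold changes between −0.28 and 0.21), and Elk1, Mrtfa and Smad3 were called higher after median-ratio rescaling.

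Genes that signal contraction or relaxation, such as receptors, kinases, ion channels and cGMP enzymes, were lower in 22 of 27 tested, with 0 higher and a median log2 fold change of −1.27, and in 17 to 19 of 27 under the other scalings, where 2 to 5 were called higher. Over all tested genes 4011 to 5377 were called higher under those scalings. The share of all tested genes called lower was 56.5% as deposited and 24.7% to 38.6% under the other scalings. Gucy1b1 and Gucy1a1, the subunits of the nitric oxide receptor guanylate cyclase, changed by −2.21 and −2.07. Ednrb, an endothelin receptor that endothelium also carries, was measured at 2.14, 1.70 and 3.67 TPM in the model libraries, against 38.9, 26.4 and 31.5 TPM in the control libraries (log2 fold change −3.27 ± 0.21, adjusted p = 2.7e-06, limma). Arhgef12, an activator of RhoA, changed by −1.79. Chrm3, the muscarinic receptor of airway muscle, Cysltr1, Itpr1, Rgs2 and Rgs5 did not pass, and Chrm3 and Rgs5 were called higher after each of the 3 other scalings.

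The relatives of the contractile genes set the members beside paralogs with wider expression. Of the 6 actins, the 4 muscle actins Acta1, Acta2, Actc1 and Actg2 were lower in the model group, whereas Actb and Actg1, the actins of all cells, did not pass. Actc1, the cardiac actin, was measured at 7.20, 3.63 and 9.38 TPM in the model libraries, against 70.0, 109 and 135 TPM in the control libraries, and Acta1, the skeletal actin, at 0.32, 0.41 and 0.47 TPM, against 1.88, 3.70 and 9.23 TPM. Actb ranged from 1469 to 1572 TPM in the model group and from 1215 to 1401 TPM in the control group (log2 fold change 0.22). Its direction depends on the scaling, since Actb and Actg1 were called higher after median-ratio rescaling (0.76 and 0.53) and lower after quantile normalization (−0.54 and −0.46). Of 9 calponin, transgelin and leiomodin relatives tested, 9 were lower (median −1.48), or 5 to 8 under the other scalings, led by Cnn3 (−2.14), Tmod1 (−1.96), Tmod2 (−1.52) and Smtnl2 (−1.48), although Tagln2, a transgelin of blood and other cells, was called higher after recomputation of TPM (0.20). The share of all tested genes called lower was 56.5% as deposited and 24.7% to 38.6% under the other scalings.

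Markers of other cells of the vessel and airway wall were mostly lower as well, where 56.5% of all 16080 tested genes were called lower and 2674 genes higher. Of 13 pericyte markers, 10 were lower in the model than in the control group (median log2 fold change −1.64), with Mcam (−1.83), Cox4i2 (−2.45), Ndufa4l2 (−2.11) and Higd1b (−1.99) at the smallest p. Abcc9, Kcnj8 and Rgs5, 3 classical pericyte genes, did not pass. Under each of the 3 other scalings 10 of the 13 were again called lower in the model group, where 24.7% to 38.6% of all tested genes were. Rgs5 was called higher under all 3, and Kcnj8 after median-ratio rescaling and recomputation of TPM. Rgs5 was also higher in the QJHTD than in the control group, at 8.46, 7.58 and 7.92 TPM in the QJHTD libraries, against 3.64, 3.64 and 6.42 TPM in the control libraries (log2 fold change 0.73, adjusted p = 0.00708, limma). Of 10 markers of airway smooth muscle and myofibroblasts, 8 were lower, among them Aspn (−2.06), Postn (−1.84) and Hhip (−2.28), and 2 were higher, the matrix genes Tgfbi (2.19) and Tnc (0.83). All 10 endothelial markers were lower (median −2.20), with Tek (−3.24), Pecam1 (−2.16), Tie1 (−2.50) and Cldn5 (−3.47) at the smallest p.

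Fibroblast markers did not all go in the same direction. Of 13, 9 were lower in the model group, where 56.5% of all tested genes were called lower. The 9 were led by Inmt (−3.44), Tcf21 (−3.11), Npnt (−2.15) and Limch1 (−1.75), whereas the collagen genes Col1a1 (1.18), Col3a1 (1.08) and Col1a2 (0.60) were higher. Under the 3 other scalings 6 to 7 were called lower and 4 higher, with Lum added, and the median of −0.83 moved to between −0.47 and −0.21. In these fits 24.7% to 38.6% of all tested genes (15787 to 16080) were called lower, and 4011 to 5377 genes were called higher. All 8 neutrophil markers were higher (median 4.88), where 2674 of the 16080 tested genes were called higher. Their sums were 6406 to 13554 TPM in the model group, against 155 to 355 TPM in the control group. The part of these shifts in cell type in the contractile genes was not tested. Among 11 reference genes of most cells, 3 were higher (B2m, Gapdh and Pgk1) and 5 were lower (Sdha with the smallest p, −0.61), with a median of −0.05. After quantile normalization the split was again 3 and 5, but 7 were higher and 0 lower (limma) after median-ratio rescaling (median 0.49) and after recomputation of TPM (median 0.59). Over all 16080 tested genes 4011 were higher and 6214 lower after quantile normalization, and 4976 and 4753 after median-ratio rescaling. After recomputation 5377 of 15787 were higher and 3902 lower. Between the QJHTD and the model group 0 genes of any of these lists passed the adjusted p (limma). At an unadjusted p under 0.05 (limma) the most were 5 of 10 endothelial markers (all higher in QJHTD) and 4 of 8 neutrophil markers (all lower in QJHTD). Of all tested genes, 6.84% had such a p, and the lists were chosen with earlier results of these data known.

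The contractile genes were also set against neighbouring cells of the vessel wall, as ratios described without a test. The 10 genes summed to 101 to 168 TPM per 100 TPM of pericyte markers in the model group, against 137 to 185 in the control group, and to 47.2 to 73.0 TPM per 100 TPM of endothelial markers, against 34.9 to 52.4. In the QJHTD group these ranges were 84.1 to 146 and 36.3 to 61.7. The ranges of all groups overlapped in both ratios, and also for fibroblast markers, at 8.74 to 13.5 in the QJHTD group, 9.605 to 15.7 in the model group and 12.9 to 20.5 in the control group. They did not overlap between the model and control groups for cardiomyocyte markers, at 40.3 to 228 TPM of the 10 genes per 100 TPM of markers in the QJHTD group, 75.1 to 267 in the model group and 26.1 to 73.9 in the control group. For neutrophil markers the ratio was 1.44 to 2.54 in the QJHTD group and 0.76 to 2.43 in the model group, against 133 to 409 in the control group.

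**Figure D5:**
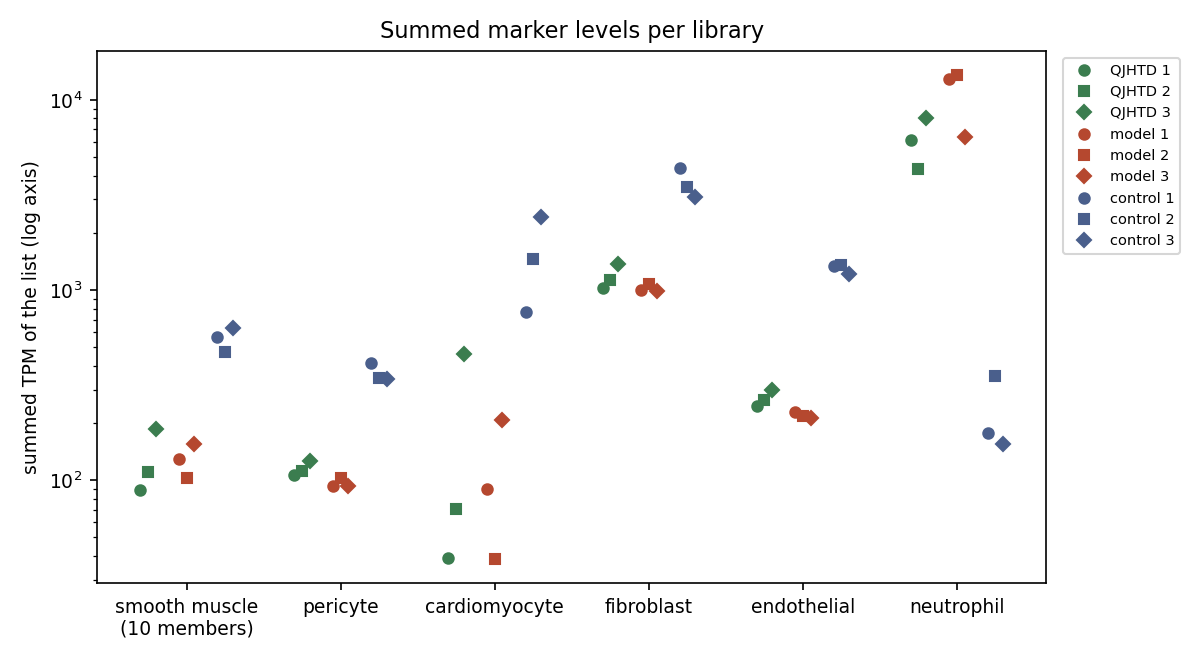
Summed TPM (log axis) of the 10 smooth muscle genes and of 5 lists of cell markers in each library, with colours for the QJHTD, model and control groups and symbols for replicates. Control libraries are highest for all lists but the neutrophil list, and cardiomyocyte markers spread most within groups.

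The share of each gene in the sum of the 10 showed which genes kept their place. Actg2 took 8.57% to 11.4% of the sum in the model group, against 5.77% to 6.73% in the control group, without overlap. Myocd, the least abundant, averaged 0.481% in the model group and 0.147% in the control group, with overlapping libraries. Acta2 made up 27.7% to 30.3% of the summed TPM of the 10 genes in the model group, against 23.9% to 28.1% in the control group, and Tagln 25.7% to 27.1%, against 29.3% to 30.4%. Acta2 per 100 TPM of Tagln was 112 to 114 in the QJHTD group, 104 to 114 in the model group and 78.5 to 96.1 in the control group, without overlap between treated and control libraries, but at the smallest p the design allows (exact permutation p = 0.1, two-sided; 0.225 adjusted over 9 comparisons). Exact sequence shared with other genes was small. Of the 50-base words of Acta2 transcripts 0.33% occur in other genes (Actg1 and pseudogenes), as do 0.34% of those of Myh11 (Myh9 and Myh10) and none of those of Actg2. Words with a mismatch were not counted, so how many reads similar genes share is not known from this. Tagln, however, overlaps the antisense gene Gm48529 over 62.4% of its exonic bases, and Smtn overlaps Gm11946 over 16.3%. Whether reads were counted by strand is not given in the sources used here. Gm48529 averaged 1.19 TPM in model lungs and 2.88 TPM in control lungs, far below Tagln.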

How the data were processed

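Lung RNA was sequenced in 9 libraries, 3 per group. The authors deposited TPM per gene and library, made from reads by fastp (trimming) and RSEM (quantification), the versions of both being not given in the sources used here, and a build named GRCh38.p6, a human assembly, although the identifiers are of mouse. Of 55486 mouse identifiers 55226 were found in GENCODE M21, which gave gene models. The deposited gene length, another unit, and 3 columns of group means were not used in tests. A gene entered the tests if 3 or more libraries reached 1 TPM. Values as log2(TPM + 1) were fitted for all 3 groups in one model (R 4.3.3, limma 3.58.1, variance trend on intensity), which left 6 degrees of freedom and drew 2.88 more from the prior. The Benjamini-Hochberg adjustment ran over 16080 genes. The fit was tested on simulated data. Tables were handled with Python 3.11.15 and pandas 2.3.3.

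The 10 genes and all lists were chosen with earlier results of these data known. All 10 genes are named, and of each other list the up to 4 with the smallest p between model and control, plus those past the test against their list's direction. The genes of like pattern were the 5 with the highest correlation of deviations, at a mean of at least 5 TPM, outside the lists. Alternatives were a pseudocount of 0.1, no filter or a mean of at least 5 TPM, 3 other scalings, fits of only the 2 groups, no trend, a replicate block, another call rule, each library left out, and M2 and Q1 left out. Depth is unknown, so no counting intervals are given. No set test was run.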

Additional observations from a re-analysis of the deposited data

How the results depend on the processing

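The contractile genes called lower numbered 9 of 9 against control in the model and QJHTD groups under each alternative that kept 9 genes (7 of 7 with a mean of at least 5 TPM; without a filter 9 of 10 in the model group, where 33.5% of all genes were lower, and 10 of 10 in the QJHTD group, Myocd included, where 31.5% were), and 0 passed between QJHTD and model. With each library left out in turn no call of a contractile gene changed, and the log2 fold change of Acta2 between model and control lay between −2.12 and −1.79. Directions between QJHTD and model, which passed no test, turned for 7 genes, and not for Cnn1 or Smtn. Leaving out 1 library at a time gave −0.34 to 0.20 for Acta2, −0.22 to 0.26 for Myh11, −0.40 to 0.15 for Tagln, −0.65 to −0.10 for Cnn1, −0.23 to 0.24 for Des, −0.39 to 0.16 for Actg2, −0.0787 to 0.21 for Lmod1 and −0.17 to 0.14 for Synpo2. Without M2 and Q1, 9 of 9 were lower in the model group (50.2% of all genes) and in the QJHTD group (47.8%), and the values between QJHTD and model were 0.0903 for Acta2, 0.00524 for Tagln and 0.0551 for Actg2. For Myh11 median-ratio rescaling gave −0.0357 and quantile normalization −0.0423. The cause was not tested.

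Over all tested genes, the 2 called between QJHTD and model became 0 with a pseudocount of 0.1 or a mean of at least 5 TPM, 4 without a filter, 1 after median-ratio rescaling or quantile normalization, 1 to 4 with 1 library left out, and 89 when called by a change of 1 or more in size (log2) and an unadjusted p under 0.05. That rule gave 5043 in place of 11753 genes between model and control and 4824 in place of 11371 between QJHTD and control. The split of higher and lower calls between model and control was 2674 and 9079 as deposited, 4976 and 4753 after median-ratio rescaling, 4011 and 6214 after quantile normalization and 5377 and 3902 after recomputation. Over all tested genes no pairing by replicate number was seen, since deviations of same-numbered libraries correlated between −0.10 and 0.09. For the 9 contractile genes the mean deviation was highest in replicate 3 of each group (0.43 in Q3, 0.27 in M3 and 0.16 in C3). Whether these genes share a replicate effect was not tested. With a replicate block, 9 of 9 contractile genes were still lower in both comparisons with control, 0 passed between QJHTD and model, and over all genes 1 did. Library depth is unknown, which limits Myocd most.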
